A study of Drosophila melanogaster with 2 samples.

Results

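Of the 3077 peaks in the optimal CLAMP peak set, 453 (14.7%) lay between genes and away from gene starts. They were chosen by position alone: the summit, the highest point of the peak, was more than 500 bp from every annotated transcription start site (TSS) of a protein-coding or noncoding RNA gene and inside no such gene. The other peaks had their summits in introns (1129), within 500 bp of a TSS and called promoter peaks here (1086), or in exons (409). The rule used neither signal nor sequence.

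The chromatin came from 1 group of embryos, collected 0 to 24 h after laying with males and females pooled, from a transgenic Drosophila melanogaster line that makes CLAMP (CG1832) with GFP at its C terminus. The precipitation was done against GFP, after sonication to 200 to 800 bp, in 2 biological replicates numbered 4 and 2. Whole embryos mix all tissues and stages of that day, so a peak cannot be placed in a cell type, and no untagged line or second condition was analysed here. Each peak carries the authors' signal value, an enrichment over a control. It is used below to describe and rank peaks within 1 list and, across the 2 replicate lists, in a correlation and a ratio. Read depth is unknown from peak lists. Intervals are exact 95% intervals that cover counting error over sites only, and p-values measure only the spread between sites of these 2 libraries, since sites are not replicates.

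CLAMP is a zinc-finger protein that binds alternating G and A bases and is known for its part in directing the male dosage compensation complex to the X chromosome. It also binds promoters on all chromosomes, including those of the histone genes. Fly intergenic DNA holds, among other elements, enhancers and Polycomb response elements, which control developmental genes from a distance.

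The sequence at the summit of 7 members shows what these sites look like. They are 3 of the strongest in which G and A alternate without a break over 8 bp or more, a GA run (Rilpl, salm and dac, which ranked 3, 8 and 12 among members by signal), the 3 strongest without one, and the one with the longest run. Stronger members with a run, among them those near en and dve, are given by their values only. Each line gives the + strand of dm6 (RefSeq), 100 bases to either side of the summit, named by the gene with the nearest TSS. Capitals mark GA runs of 8 bp or more on either strand in Rilpl, salm, dac and CG1504, and each GAGAG or CTCTC in Rh5, H15 and oc.

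Rilpl, chrX:1399725-1399925: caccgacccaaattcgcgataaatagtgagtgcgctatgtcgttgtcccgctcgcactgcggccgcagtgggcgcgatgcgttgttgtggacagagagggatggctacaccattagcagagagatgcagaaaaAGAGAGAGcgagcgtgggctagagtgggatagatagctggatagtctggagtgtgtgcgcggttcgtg
salm, chr2L:11446140-11446340: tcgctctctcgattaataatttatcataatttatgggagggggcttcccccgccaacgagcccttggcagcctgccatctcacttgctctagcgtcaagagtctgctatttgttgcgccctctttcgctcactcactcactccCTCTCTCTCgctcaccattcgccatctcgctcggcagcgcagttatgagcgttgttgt
dac, chr2L:16486400-16486600: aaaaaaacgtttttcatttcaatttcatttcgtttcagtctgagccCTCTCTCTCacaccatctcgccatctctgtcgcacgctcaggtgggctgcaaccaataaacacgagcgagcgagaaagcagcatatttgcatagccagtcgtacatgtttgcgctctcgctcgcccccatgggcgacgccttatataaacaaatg
Rh5, chr2L:12007396-12007596: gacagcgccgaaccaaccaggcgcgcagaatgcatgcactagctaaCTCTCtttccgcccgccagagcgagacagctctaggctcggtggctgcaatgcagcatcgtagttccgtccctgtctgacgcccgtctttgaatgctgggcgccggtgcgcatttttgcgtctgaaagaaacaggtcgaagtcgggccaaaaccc
H15, chr2L:5403653-5403853: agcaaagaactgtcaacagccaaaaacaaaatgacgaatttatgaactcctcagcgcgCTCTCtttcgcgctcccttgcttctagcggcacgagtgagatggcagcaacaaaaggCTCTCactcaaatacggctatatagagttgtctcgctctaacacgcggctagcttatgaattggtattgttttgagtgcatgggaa
oc, chrX:8624945-8625145: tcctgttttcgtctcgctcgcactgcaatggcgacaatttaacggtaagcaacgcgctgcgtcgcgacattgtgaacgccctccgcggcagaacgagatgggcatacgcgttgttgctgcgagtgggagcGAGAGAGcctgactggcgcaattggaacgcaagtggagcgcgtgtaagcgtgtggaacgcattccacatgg
CG1504, chrX:20352476-20352676: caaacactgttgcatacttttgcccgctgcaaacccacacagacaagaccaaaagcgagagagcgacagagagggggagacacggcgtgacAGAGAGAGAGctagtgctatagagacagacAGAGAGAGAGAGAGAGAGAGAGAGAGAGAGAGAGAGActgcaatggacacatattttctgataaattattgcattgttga

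The strongest of these sites carried only short GA stretches. The longest run was 8 bp at Rilpl and 9 bp at salm and dac, and it was 6 bp at Rh5, 6 bp at H15 and 7 bp at oc. The site at CG1504, with a run of 37 bp, had a signal of 182.7, against 4687 at Rh5, the strongest member. The 5 longest runs, of 37, 33, 32, 29 and 29 bp, lay at members with signals of 182.7 (CG1504), 841.6 (oc), 357.3 (lncRNA:CR45590), 597.7 (lncRNA:acal) and 231.0 (lncRNA:CR44546). None of these was among the 20 strongest members.

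GA runs were common at member summits and rare beside them. Within 100 bp of the summit, 145 of 453 members (32.0%, interval 27.7 to 36.5) held a run of 8 bp or more, beside 34.4% of all optimal peaks. In windows of the same size 1000 bp to either side, 21 of 905 (2.32%) held one. Of all 191278 such windows that tile the 39.5 Mb of the genome in which a member could lie, called intergenic territory here, 1.20% held one. A run was present at the summit but in neither flank for 135 members, in a flank but not at the summit for 10, and in both for 10. The run's share by replicate was 32.7% of the 404 intergenic peaks among the 3077 strongest regions of replicate 4, and 32.9% of the 423 in replicate 2.

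**Figure D1:**
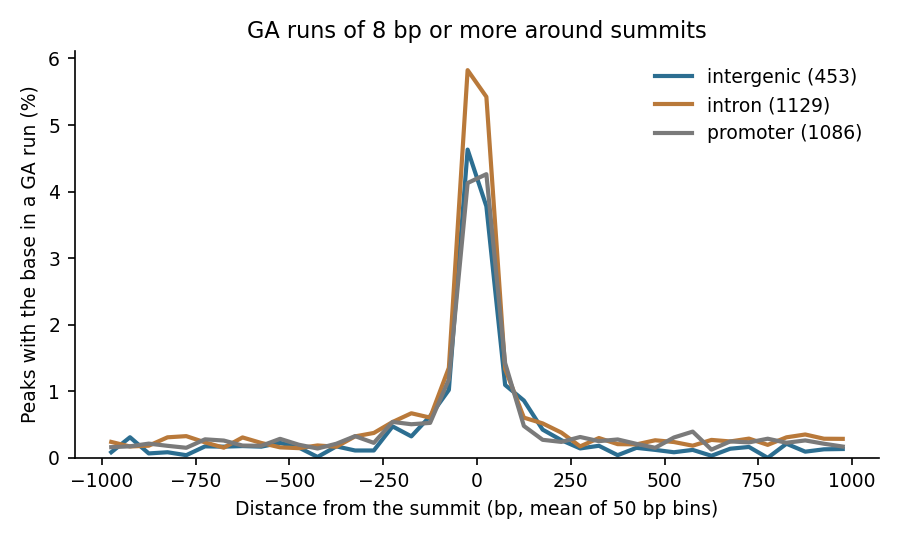
Mean share of peaks (%, y axis) with a base inside a GA run of 8 bp or more, in 50 bp bins by distance from the summit (bp, x axis), for intergenic, intron and promoter peaks. In members the share reached 4.63% in the bin just left of the summit and was 1.02% in the bin centred 75 bp to the left.

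Most members had no such run, and a shorter stretch was more widespread. GAGAG, on either strand, was present at 346 members (76.4%), against 23.4% of flanks and 21.0% of territory windows. It was also present in 65.3% of the 308 members without a run. The other classes had it at 81.6% of intron peaks and 74.8% of promoter peaks.

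The run share was lower in members than in intron peaks, 32.0% against 40.0%. The odds ratio was 0.705, interval 0.556 to 0.893, with a two-sided Benjamini-Hochberg adjusted p of 0.0143 over 5 comparisons by Fisher's exact test. This difference did not hold in either replicate alone: the odds ratio was 0.818 (adjusted p = 0.201, Fisher's exact test) among the strongest regions of replicate 4 and 0.797 (adjusted p = 0.104) in those of replicate 2. It also missed the threshold for runs of 10 bp or 12 bp, at 2000 bp or more from a TSS, for peaks found in both lists and for the upper part of the peaks by signal. Against promoter peaks, 34.7% of which held a run, the odds ratio was 0.885 (0.695 to 1.12; adjusted p = 0.526, Fisher's exact test), so the data leave room for a difference either way.

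Signal did not rise steadily with the length of the run. The median signal was 220.7 for the 308 members without a run, 328.7 for 77 with 8 to 11 bp, 314.6 for 50 with 12 to 19 bp and 229.0 for 18 with 20 bp or more. Spearman's rho between run length and signal across the 453 sites was 0.199. The share with a run was 30.0% in the 50 strongest members, 42.0% in the next 100, 34.0% in the 150 after those and 24.2% in the 153 weakest.

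Another motif had its highest share at member summits among the sets compared. GCCAT, the core of the site bound by Pleiohomeotic (Pho), the DNA-binding protein of Polycomb repression, was present on either strand at 224 members (49.4%, 44.8 to 54.2). It was present in 32.3% of flanks and 34.8% of territory windows, in 39.2% of intron peaks (36.4 to 42.2) and in 31.8% of promoter peaks (29.0 to 34.6). The order of these 3 peak classes was the same in each replicate. It was 48.3% of intergenic, 40.1% of intron and 35.5% of promoter peaks in replicate 4, and 48.2%, 39.2% and 29.9% in replicate 2. Exon peaks held GCCAT at 39.6% in the optimal set, 44.6% in replicate 4 and 30.6% in replicate 2, so their place in the order differed between replicates. These differences were not tested, and a match to 5 bases is not a binding site. The median GC content was 51.7% at member summits and 51.7% at promoter peaks, but 50.2% at intron peaks, 41.8% in flanks and 41.3% in territory windows. The part of GC content in these shares was not tested.

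**Figure D2:**
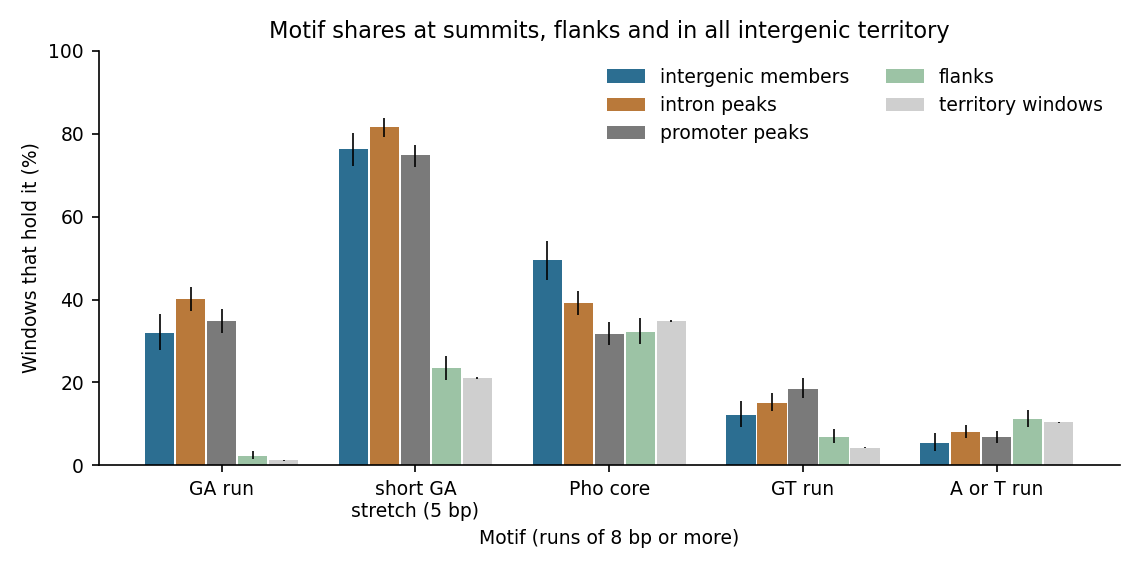
Share of windows, 100 bp to either side of a summit or centre, (%, y axis) that hold each motif on either strand, at intergenic members, intron peaks, promoter peaks, member flanks and all windows of the intergenic territory, with exact 95% intervals. The short GA stretch is GAGAG and the Pho core is GCCAT. Members stand at 49.4% for the Pho core, above the other 4 sets, and at 32.0% for the GA run, with flanks at 2.32%.

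The remaining motifs were scarce or less distinct. Runs of alternating G and T of 8 bp or more were present at 12.1% of members, 6.85% of flanks, 15.2% of intron peaks and 18.5% of promoter peaks. Runs of 8 or more A bases, or of 8 or more T bases, were present at 5.30% of members and 11.2% of flanks. CAGGTAG, the site of the early genome activator Zelda, was present at 7 members (1.55%), against 1.10% of flanks. CACGTG, an E-box, was present at 11 members (2.43%), against 3.87% of flanks. TATCGATA, the DRE element of many housekeeping promoters, was present at 0 of 453 members. By 3 counts of the total this allows a share of up to 0.662% (exact upper limit 0.811%). The flank share of 0.773% lay between these limits, so a lower share at members than in flanks was not settled. The share was 1.01% in promoter peaks, above both limits. It was 0.266% in intron peaks and 0.465% in territory windows, below both. These differences were not tested.

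The strength of members spread widely. Their signal had a median of 235.3, with quartiles of 158 and 545.9, and ran from 123 to 4687. The medians were 269.3 in intron peaks, 360 in promoter peaks and 273.2 in all optimal peaks. Among the 300 strongest peaks of the whole set there were 45 members (9.93% of members), while the share was 5.76% of intron peaks and 16.2% of promoter peaks. The median of members was 0.861 times that of all optimal peaks, and 1.0 times with the distance limit set at 250 bp. Among the strongest regions of each replicate it was 1.07 times in replicate 4 and 0.868 times in replicate 2, so its direction was not the same in both. A signal of 1000 or more was measured at 56 members.

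The strongest member, with a signal of 4687, lay between Hacd1, a fatty acid elongation enzyme, and Rh5 (FBgn0014019), the blue-sensitive opsin of photoreceptors. Its summit was at 2L:12007496 (dm6), 657 bp from the TSS of Rh5. Its signal was 3542 in replicate 4 and 1142 in replicate 2, and it ranked 22 in the first list and 23 in the second, of 30000 regions each. The gap held 3 further members, at 2L:12006569 (signal 1726), 2L:12003796 (1473) and 2L:12005684 (141.9). The gap on the other side of Rh5 held 3 more, with signals of 1274, 1382 and 238.0. None of these 7 members had a GA run of 8 bp or more. The weakest, at 2L:12005684, was found in replicate 4 only.

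Genes on the homeobox list used here, which leaves out the Hox clusters, were the nearest genes of 8 of the 20 strongest members. The homeobox gene dve, nearest to another of them, was not on that list. A signal of 4343 was measured at 2R:11529651, 1441 bp from the TSS of en (FBgn0000577), the homeobox gene engrailed that marks posterior compartments of segments. It was 3207 in replicate 4 and 1127 in replicate 2. The same 49274 bp gap, between en and tou, held members of 1242 at 2R:11542213 and 1030 at 2R:11565795, so that all 3 were above 1000.

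Rilpl came next, with 4334 at X:1399825 (3184 in replicate 4 and 1172 in replicate 2), 6771 bp from a TSS in the gap between Rilpl and futsch, a microtubule-associated protein of neurons. The site near dve, a homeobox gene of the gut and wing, had 3959, and that near H15, a T-box gene, had 3812. At oc, the head homeobox gene orthodenticle, the signal was 3707 at X:8625045, 18131 bp from the nearest TSS. The site by salm, a zinc-finger gene of wing and trachea patterning, had 3581, and that by dac, a nuclear factor of eye and leg development, had 3237. These sites differed in distance: 527 bp at H15, 626 bp at salm and 502 bp at dac, against 6771 bp at Rilpl and 18131 bp at oc.

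Several of the others bordered a known regulator that was not the nearest gene. The member nearest CG14659 (3396) shared its gap with opa, a pair-rule zinc-finger gene, and that nearest lncRNA:CR43302 (3329) shared its gap with grn, a GATA factor. The member nearest E5 (3016) lay between 2 homeobox genes, E5 and ems. Further down were Prat2 (3304), mirr (3130), lncRNA:CR45297 (2823), TfAP-2 (2712), Lim1 (2627), drm (2163), OdsH (2138) and B-H2 (2114). Prat2 encodes an enzyme of purine synthesis, while mirr, Lim1, OdsH and B-H2 are homeobox genes.

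Of the 20 strongest members, 6 were on X, 7 held a GA run and 19 held GAGAG. All 20 were found in both replicate lists, at ranks no lower than 139 in replicate 4 and 169 in replicate 2. By distance, 7 lay within 1000 bp of a TSS and 5 more than 5000 bp away.

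Homeobox genes were the nearest genes of a larger share of members than of territory. Of 453 members, 54 (11.9%) had their nearest TSS at 1 of 31 listed homeobox genes outside the Hox clusters. Of the territory within 50 kb of a TSS on the 5 large arms, 1.98% was nearest to a gene of this list, and of all optimal peaks 5.07%. The list was not complete: the members near dve, with signals of 3959 and 658.7, were not counted. By either gene bordering the gap, 79 members (17.4%) were counted. No share of territory or of all peaks was computed by this measure, so 17.4% has no background. The measure also raised the share of long noncoding RNA genes, from 25.8% to 46.6%. By the nearest TSS, the homeobox share of intergenic peaks was 13.4% in replicate 4 alone and 11.1% in replicate 2 alone. Of the 54 members, 52 were found in both replicate lists and 14 had a signal of 1000 or more.

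The share with a GA run is given for the developmental lists as a description. A GA run was present at 28 of the 54 (51.9%, 37.8 to 65.7). The Sox, T-box, Pax and Forkhead list and the gap and pair-rule list had 18 members outside the homeobox list. Of these 18, 0 held a run, which by 3 counts of the total allows a share of up to 16.7% (exact upper limit 18.5%). The lists were not complete: CHES-1-like, a Forkhead gene that was not listed, was nearest to a member with a run of 9 bp. Of the other 381 members, 117 (30.7%, 26.1 to 35.6) held one. The lists were drawn up with earlier results known, 1 gene can have several members, and these shares were not tested against each other. The median signal was 310.8, 421.8 and 230.7 in the 3 sets in that order.

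**Figure D3:**
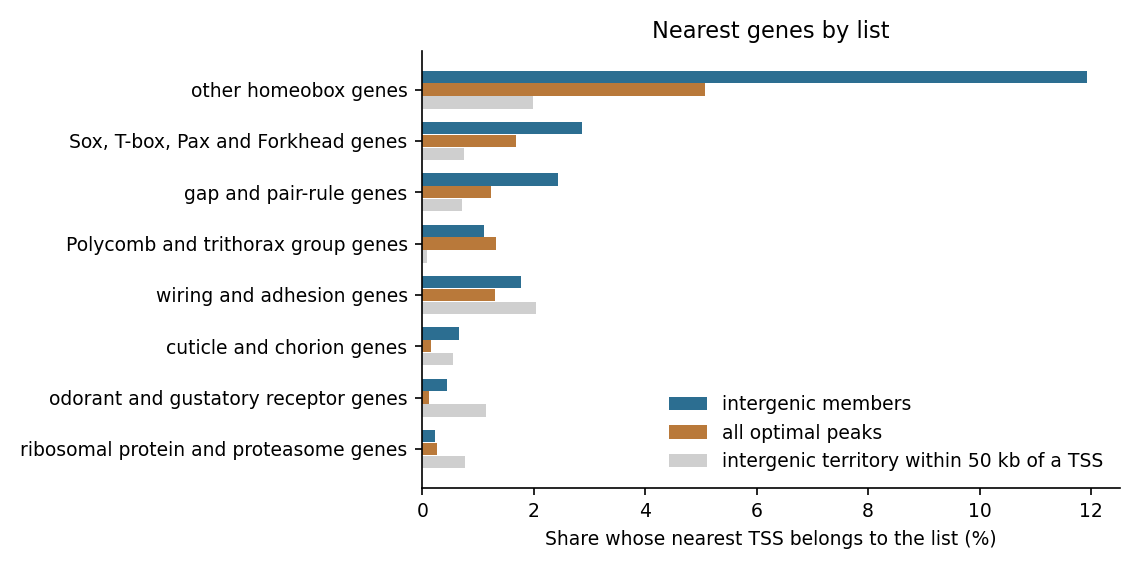
Share (%, x axis) of intergenic members, of all optimal peaks and of intergenic territory within 50 kb of a TSS on the 5 large arms whose nearest TSS belongs to each gene list. Members nearest to listed homeobox genes other than Hox genes make up 11.9%, above 5.07% of all optimal peaks and 1.98% of the territory.

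Other lists of coding genes had few members, and each count covers the listed genes only. The shares below are of members, of the territory near genes and of all optimal peaks, in that order. Sox, T-box, Pax and Forkhead genes had 13 (2.87%, against 0.758% and 1.69%), among them H15, toe (1915) and fd96Ca (1782). The gap and pair-rule list, which also holds drm, a relative of the pair-rule gene odd, had 11 (2.43% against 0.710% and 1.24%). Some of its genes are also homeobox genes, and its strongest members were near oc and drm. Polycomb and trithorax group genes had 5 (1.10% against 0.0862% and 1.33%) at 2 genes: ph-d, a subunit of a Polycomb complex, with a signal of 1302, and Su(z)2, whose strongest member had 172.6. In all, 3 of these 5 were missing from at least 1 replicate list.

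The Hox genes were nearest to 0.0638% of the territory and 0.715% of all optimal peaks, and the dosage compensation genes to 0.0001566% and 0.065%. Both lists had 0 members. With so little territory, a count of 0 cannot show that members avoid these genes. Wiring and adhesion genes had 8 (1.77% against 2.04% and 1.30%), with 18w at 1777, Tl at 935.7 and tey at 275.3. The adhesion genes Ama (693.9) and ed (3 members, up to 423.7) were not on that list. The listed bHLH genes had 1, hry with 170.1 (0.221% against 0.159% and 0.618%), but E(spl)m7-HLH (200.3), also a bHLH gene, was not listed. The signalling ligands had 1, ths with 125.2 (0.221% against 0.562% and 0.715%). Odorant and gustatory receptors had 2 (0.442% against 1.14% and 0.130%), Or67d and Gr93a. Cuticle and chorion genes had 3 (0.662% against 0.544% and 0.163%) at Edg84A and Cpr100A, and ribosomal protein and proteasome genes had 1 (0.221% against 0.761% and 0.260%), at Prosalpha5. Long noncoding RNA genes had 117 (25.8% against 27.1% and 13.0%), close to the share of the territory and above that of all peaks.

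Members lay closer to gene starts than the territory itself. Their median distance from the nearest TSS was 2511 bp, with quartiles of 1270 and 5211 bp, whereas the median over all territory was 6723 bp. The density was 24.7 members per Mb of territory at 501 to 1000 bp, 27.2 at 1001 to 2000 bp, 15.2 at 2001 to 5000 bp, 8.26 at 5001 to 10000 bp and 6.02 at 10001 to 50000 bp. Farther out, 3 members lay in 6.29 Mb. The Y chromosome, with 2.58 Mb of territory, held 0 members and 0 optimal peaks of any class, so its lack of members was not particular to them. Its territory is part of the median over all territory and of the densities above. The signal showed little relation to distance, with Spearman's rho of -0.107 across 453 sites.

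The edge of the rule was not a gap in the data. The members just inside it were at CG16700 (501 bp, signal 274), dac (502 bp, 3237), lncRNA:CR45659 (507 bp, 150.4), Nek2 (507 bp, 431.1) and insc (511 bp, 901.8). Just outside lay peaks at Dora (500 bp, 516.1), spn-F (500 bp, 129.2), Sox21b (500 bp, 3026), unc-5 (500 bp, 848.5) and Chpf (499 bp, 748).

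**Figure D4:**
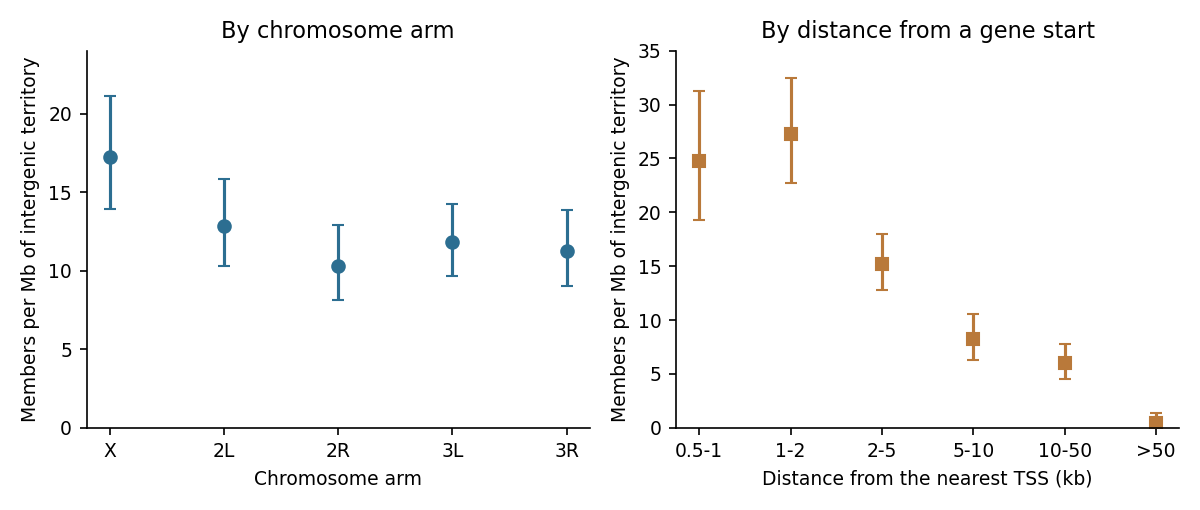
Members per Mb of intergenic territory (y axes, exact Poisson 95% intervals) on each large chromosome arm, X first, and by distance from the nearest TSS (kb). X stands at 17.2 per Mb, above the 4 autosomal arms at 10.3 to 12.8, and the density is 27.2 at 1 to 2 kb and 0.477 beyond 50 kb.

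Per Mb, X held more members than the autosomes did. There were 93 on X and 360 on 2L, 2R, 3L and 3R, or 17.2 and 11.5 per Mb of territory, a ratio of 1.49 (exact interval 1.18 to 1.88). The ratio was 1.41 (1.09 to 1.80) in replicate 4 alone and 1.50 (1.17 to 1.90) in replicate 2 alone. Over peaks above the median signal of the whole set it was 1.36, with an interval of 0.934 to 1.94 that includes 1. The excess was not particular to members: all optimal peaks numbered 33.6 per Mb of chromosome on X and 20.9 elsewhere on the large arms (ratio 1.60, 1.48 to 1.74), and members made up 11.8% of the 790 peaks on X (9.61 to 14.2) and 15.8% of the 2281 on the autosomes (14.3 to 17.3). Members on X had a median signal of 232.1, against 241.8 elsewhere, and 30 of 93 members on X (32.3%) and 115 of 360 on the autosomes (31.9%) held a run (odds ratio 1.01, 0.599 to 1.69; Fisher's exact test, adjusted p = 1.0). Chromosome 4 held 0 members among its 6 optimal peaks.

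Divergent gaps, in which both genes are transcribed away from the gap, held more members than their length. They held 153 (33.8%, 29.4 to 38.3), against 22.1% of the territory within 50 kb of a TSS. Gaps between genes in tandem held 227 (50.1% against 51.6%), and convergent gaps held 70 (15.5% against 25.3%). The 3 others were outside any gap between 2 genes. In all, 340 members (75.1%) lay upstream of the gene with the nearest TSS, against 58.0% of that territory. The nearest gene also had a promoter peak of CLAMP for 119 members (26.3%, 22.3 to 30.6), against 6.79% of that territory.

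Some gaps held several members. The number expected from gap length was not computed, so clustering was not tested. In all, 119 members lay in gaps of more than 20 kb, and 24 lay within 500 bp of another member. Apart from the 3 outside any gap, they lay in 342 of 11751 gaps between genes, of which 266 held 1, 52 held 2 and 24 held 3 or more. The 75047 bp gap between NijA, a ninjurin of cell adhesion, and CG43245 held 5. From left to right their signals were 1034, 860.4, 548, 444.9 and 367.5, and the fourth was found in replicate 2 only. The gaps beside Lim1 (4 members, 156.2 to 2627), COX7AL2 (4, 343.1 to 832.4) and B-H2 (4, 166.9 to 810.6) followed. In the gap of hid, an inducer of cell death, 4 members had signals of 126.6 to 414.3, and in that of Su(z)2 4 had 127.8 to 172.6. Of the 4 members by Su(z)2, 0 were found in both replicate lists. At COX7AL2 and B-H2 a pair of members about 200 bp apart matched 1 region of replicate 4, so these are not fully separate sites. In all, 10 members shared a region of replicate 4 with another member and 2 shared one of replicate 2.

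The most distant member lay 199294 bp from any TSS, at 2L:23512872, 840 bp from the end of the arm, with Tim23 as the nearest gene. Its signal was 559.8, and it ranked 589 in replicate 4 and 2339 in replicate 2. The next, at X:22373447, lay inside an annotated R1A1 transposable element, the only member in another annotated feature, with a signal of 132.8.

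Of the 453 members, 382 (84.3%, 80.7 to 87.5) had a region of each replicate list with its summit within 200 bp, beside 79.9% of all optimal peaks. All 3077 optimal peaks were regions of the pooled list, kept by an irreproducible discovery rate step. That step may have selected for agreement between the replicates. A high share may follow from it and is a description. Of the territory near genes, 1.74% would have matched both lists by this measure. The share was 80.0% in intron peaks (odds ratio 1.35, 0.998 to 1.83; Fisher's exact test, adjusted p = 0.116) and 83.1% in promoter peaks (odds ratio 1.09, 0.802 to 1.49; adjusted p = 0.748), so neither comparison passed the threshold. It was 96.0% in the 50 strongest members and 73.2% in the 153 weakest. Members missing from 1 list were mostly missing from replicate 4: 56 were found in replicate 2 only, 13 in replicate 4 only and 2 in neither.

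Among sites found in both, Spearman's rho between the replicates' signals was 0.766 over 382 members, and the sites share their sequence and the same control. The replicates differed with base composition. The signal of replicate 2 over that of replicate 4, as a log2 ratio, had a median of -1.33 over the 382 members. The scaling of the lists is unknown, so this level cannot be read as a difference in binding. The median ratio was -0.44 at the 27 members with under 45% GC and -1.72 at the 98 members with 55% GC or more. Spearman's rho with GC content was -0.568. The members found in replicate 2 only had a median GC content of 49.0%, and those in replicate 4 only 58.2%.

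**Figure D5:**
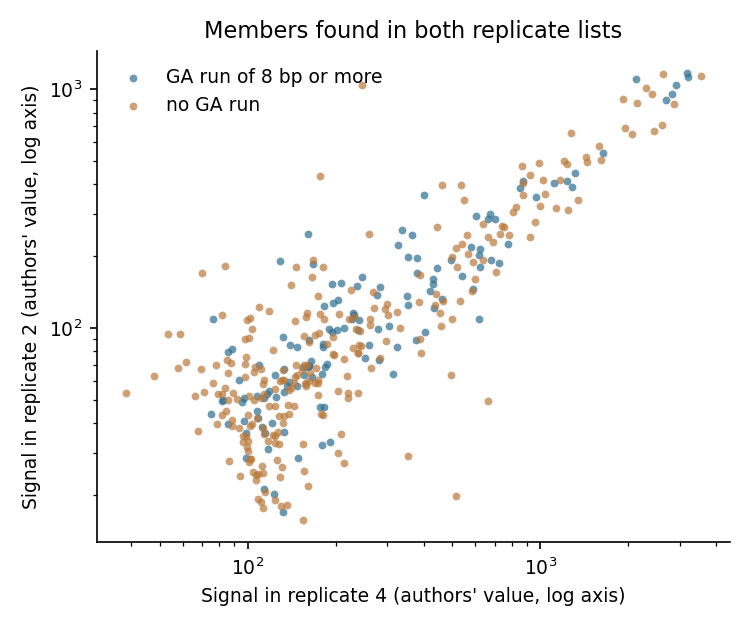
Signal of the 382 members found in both lists in replicate 4 (x axis, log scale) and replicate 2 (y axis, log scale), by whether the summit held a GA run of 8 bp or more. Strong members lie along 1 line, and the spread is wider at low signal; the point farthest above the line is the member near CG13891, with 246.3 in replicate 4 and 1048 in replicate 2.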

How the data were processed

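CLAMP-GFP ChIP-seq peak lists in dm6 were used. The text files deposited with the lists say that the pooled list and that of each replicate were called against 1 control, and that an irreproducible discovery rate step gave the optimal set. For the aligner, caller, threshold and scaling to depth, the sources used here give nothing. The unit is the signal that the authors' caller gave each peak. Summits were classified with the BDGP 6.54 annotation (Ensembl release 115) and sequence was read from the RefSeq genome. The dm3 lists were not used, and coordinates were not converted.

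Windows of 100 bp to either side, tiled territory windows, flanks at 1000 bp and territory sampled every 50 bp gave the backgrounds. A member was found in a replicate list when any of its 30000 regions, background regions included, had a summit within 200 bp. Class shares were compared by Fisher's exact test with Benjamini-Hochberg adjustment at 0.05 over 5 comparisons. Genes named are those nearest to the 20 strongest members, up to 3 per list, the fullest gaps, the 5 strongest members without a run, the longest runs, the farthest member and the edge of the rule; a few others were chosen after their values were seen. Of the 307 symbols written out in the 13 gene lists, 8 did not match; older symbols were replaced. One of the 20 strongest members is not reported here, though it is in the counts. The members and lists were chosen with earlier results of these data known. The classification and tests were tested on made-up peaks of known answer. Python 3.11.15, numpy 2.4.6, scipy 1.17.1, pandas 2.3.3 and matplotlib 3.10.9 were used.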

Additional observations from a re-analysis of the deposited data

How the results depend on the processing

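The density ratio of X to autosomes was 1.36 to 1.52 over the alternatives run. The odds ratio against promoter peaks missed the threshold in all of them, at 0.847 to 1.18, so its direction was not fixed. With the limit at 250 bp the members' median signal over that of all optimal peaks was 1.0, against 0.861 at 500 bp. The limit of 2000 bp left 258 members, and the peaks above the median signal of the whole set 205. The GA run share was 37.1% above that median, 57.8% for runs of 6 bp, 20.1% for 10 bp, 15% for 12 bp and 25.6% within 50 bp of the summit. The odds ratio against intron peaks lost its call at 2000 bp (0.714, adjusted p = 0.135, Fisher's exact test), above the median signal (0.755, 0.493), for runs of 10 bp (0.714, 0.0686) and 12 bp (0.691, 0.0773), and for peaks found in both lists, an alternative added after seeing the data (0.796, 0.39); the cause was not tested. The share found in both lists was 91.2% above the median signal, 80.6% for summits within 100 bp and 60.9% against only the strongest regions of each list. The homeobox share was 17.4% by either gene bordering the gap, also added after seeing the data and without a background share.

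With 1 replicate left out, there were 404 to 423 members, a GA run share of 32.7 to 32.9%, odds ratios of 0.797 to 0.818 against intron peaks and 0.997 to 1.18 against promoter peaks, density ratios of 1.41 to 1.50 and homeobox shares of 11.1 to 13.4%. No paired analysis was possible because the samples form 1 group. The 2 replicates, the missing read depth and the absence of an untagged line limit what these lists show.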

Other observations

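Several short words were more frequent at member summits than in their flanks. Among 6-base words present at 45 or more members, chosen after the data had been seen for their excess at summits over flanks, GAGACG (either strand) was present at 123 members (27.2%) and at 2.32% of flanks. Its relation to the runs was not tested, and 92 of the 308 members without a run (29.9%) held it. It was present at 26.4% of intron peaks and 17.3% of promoter peaks, and in 25.5% and 26.0% of the intergenic peaks of replicates 4 and 2. AGACGG, which overlaps it, was present at 24.5% of members and 3.31% of flanks. GAGCGA was present at 50.1% of members and 7.85% of flanks, and AGAGGG at 41.9% and 6.41%.

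An 8-base word read off the printed sequences, GCCATCTC, joins the Pho core to a short CT stretch. It was present on either strand at 41 members (9.05%, 6.57 to 12.1), 0.773% of flanks, 0.659% of territory windows, 9.39% of intron peaks and 4.88% of promoter peaks. Of members, 183 (40.4%) held GCCAT without this longer word, against 31.5% of flanks, 29.8% of intron peaks and 26.9% of promoter peaks. The word was chosen after the sequences had been seen, and its shares are a description.

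Some strong members ranked far lower in replicate 4 than in replicate 2 or were missing from its list. The site near Sid (signal 1133, GC content 38.3%) ranked 39 in replicate 2, but the nearest region of replicate 4 was 6974 bp away. The site near CG13891 (1301, 39.3%) ranked 34 in replicate 2 and 1065 in replicate 4. The strongest member missing from the list of replicate 4 was that near fd96Ca (1782, 59.2%), which ranked 218 in replicate 2. Its signal in replicate 2 was 449.1. The member near 18w (1777), found in both lists, had 447.25 in replicate 2 and 1312.5 in replicate 4. A missing entry alone therefore does not place the signal of fd96Ca in replicate 2. The members near msi (1277) and Tl (935.7) were missing from the list of replicate 4 too. The cause was not tested.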
